A study of Mus musculus with 14 samples.

Results

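The 10 genes described here are 4 oncofetal regulators (Lin28b, Hmga2, Igf2bp1 and Igf2bp3) and 6 imprinted growth genes (Igf2, Dlk1, Peg3, Mest, Plagl1 and Cdkn1c). They were chosen by symbol as a named list, and all 10 were found among the 19465 genes of the feature table of the cross sections and among the 32285 features of the table of the purchased sections. Expression was measured in 14 formalin-fixed, paraffin-embedded mouse sections with the 10x Genomics Visium platform, in which pairs of gene probes are captured on barcoded spots that each cover several cells. Of these, 6 sections came from purchased wild-type C57BL/6 mice, 1 section per group: fetal liver at E13.5, fetal liver at E14.5, leg bone with marrow at postnatal day 8 (P8), marrow at 89 weeks, adult spleen, and leg bone marrow of a 6-month-old mouse treated with EDTA. The other 8 came from mating C1qa heterozygous mice: 2 wild-type and 2 C1qa knockout E14.5 fetal livers, and 2 wild-type and 2 C1qa knockout spleens of 3-month-old mice. The fetal livers numbered 2 are littermates, and so are those numbered 4. C1qa encodes a chain of the complement component C1q. With 1 section per purchased group, stage, organ and mouse cannot be told apart in those sections, and the P8 section holds cartilage, bone and muscle beside marrow whereas the 89-week marrow was sectioned without bone.

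Oncofetal regulators are RNA-binding or chromatin proteins that are abundant in the embryo and are mostly switched off after birth. Lin28b blocks the maturation of let-7 microRNAs and is known for setting fetal-type blood formation in the liver, Hmga2 is a chromatin protein whose mRNA is a classical let-7 target, and Igf2bp1 and Igf2bp3 bind and stabilise mRNAs, Igf2 mRNA among them. Imprinted genes are expressed from the copy of 1 parent only, and many of them set the rate of fetal growth. Igf2 is a fetal growth factor, Dlk1 a membrane protein of the Notch ligand family that is made by fetal hepatoblasts, Peg3 and Plagl1 are zinc finger proteins, Mest belongs to the alpha/beta hydrolase family, and Cdkn1c (p57) inhibits cyclin-dependent kinases and restrains growth.

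In the GRCm38.p6 annotation, Lin28b lies on chromosome 10 from 45376617 to 45486314, Hmga2 on chromosome 10 from 120361268 to 120476469 and Plagl1 on chromosome 10 from 13090832 to 13131694. Igf2 (142650768 to 142666816), Cdkn1c (143458339 to 143461059) and Peg3 (6703892 to 6730462) lie on chromosome 7, with 792 kb between Igf2 and Cdkn1c. Igf2bp3 (49085218 to 49215469) and Mest (30733506 to 30748466) lie on chromosome 6, Igf2bp1 on chromosome 11 from 95957163 to 96005944 and Dlk1 on chromosome 12 from 109452485 to 109463336.

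The let-7 family is shown because Lin28b acts on it and Hmga2 is its target. These microRNAs were not measured here. Of 10 mature let-7 sequences in RefSeq, 9 share the seed GAGGUAG (bases 2 to 8), which is in capitals below. The lines give 3 of the 9.
let-7a-5p: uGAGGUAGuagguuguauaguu
let-7b-5p: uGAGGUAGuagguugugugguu
let-7g-5p: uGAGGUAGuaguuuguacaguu

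Promoter windows, which run from 250 bases before to 50 bases after an annotated start, were given for 8 of the 10 genes in 13 windows. Igf2bp1 and Cdkn1c had none. Windows of 3 genes whose level was lower in the older sections than in fetal liver are shown to compare their sequence, and capitals mark the GC box GGGCGG or its reverse complement CCGCCC. Both strands were read, and each start position of a match was counted once. The Lin28b window (chr10:45470152-45470451, minus strand) held no GC box, the Igf2 window nearest the 3′ end of the gene (chr7:142657447-142657746, minus strand) held 2, and the Plagl1 window (chr10:13090582-13090881, plus strand) held 2. The other Igf2 windows, from 142658755, 142661222 and 142666767, held 1, 0 and 0. The Lin28b window lies inside the annotated gene (45376617 to 45486314), so these counts depend on the start used.
Lin28b: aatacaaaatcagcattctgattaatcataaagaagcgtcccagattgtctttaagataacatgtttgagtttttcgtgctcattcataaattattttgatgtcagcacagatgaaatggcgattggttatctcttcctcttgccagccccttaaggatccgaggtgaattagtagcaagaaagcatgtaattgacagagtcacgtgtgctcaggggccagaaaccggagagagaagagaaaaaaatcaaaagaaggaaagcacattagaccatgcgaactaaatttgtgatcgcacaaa
Igf2: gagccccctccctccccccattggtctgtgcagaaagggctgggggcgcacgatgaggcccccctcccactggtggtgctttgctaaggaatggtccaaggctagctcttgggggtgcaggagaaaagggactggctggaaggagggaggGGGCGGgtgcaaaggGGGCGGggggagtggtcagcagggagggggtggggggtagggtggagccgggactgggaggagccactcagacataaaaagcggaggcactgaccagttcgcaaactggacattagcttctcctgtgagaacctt
Plagl1: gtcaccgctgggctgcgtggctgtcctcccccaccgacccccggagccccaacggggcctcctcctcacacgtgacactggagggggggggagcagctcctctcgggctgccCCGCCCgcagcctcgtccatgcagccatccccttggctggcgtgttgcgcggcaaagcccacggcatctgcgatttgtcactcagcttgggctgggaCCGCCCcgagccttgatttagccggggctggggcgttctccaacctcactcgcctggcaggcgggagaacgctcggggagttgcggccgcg

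A GC box was present in 7 of the 13 windows and in 35.7% of all 32851 windows of the same length in the table. The 7 are not separate promoters, since Igf2 and Mest have several windows each. The Mest windows that start at 30737800 and 30737803 overlap and hold the same box. The word TATAAA, read on both strands, was present in 0 of the 13 windows and in 13.6% of all windows. Neither word was shared by all member windows, and a match describes the letters only.

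Spots under tissue passed when 1000 or more genes were detected, which left 491 to 1085 spots in the 5 purchased sections used below and 589 to 2320 in the cross sections. In the passing spots, depth ran from 4225805 to 56182915 unique molecular identifiers (UMIs) per section. Only 15 spots of the EDTA-treated marrow passed, and its values are left to the closing section. Levels are CPM, the counts of a gene per 1e+06 UMIs, summed over passing spots, and 95% intervals are exact Poisson intervals that cover counting error only. C1qa was at 25.8 to 269 CPM in the wild-type cross sections and at 0.0548 to 0.189 CPM (1 or 2 UMIs) in the knockout sections. Hepatocyte genes, a list of 15 that includes Alb and Afp, took 2.07% and 3.21% of UMIs in the purchased fetal livers, 0.697 to 10.2% in the cross fetal livers and at most 0.0108% in any spleen or marrow section. Fetal liver sections 4 held other embryonic tissue: spots with at least 0.5% hepatocyte UMIs were 29.8% of passing spots in wild type 4 and 62.8% in knockout 4, against 94.4% and 96.6% in wild type 2 and knockout 2. In such summed samples, fewer cells of a type and less RNA per cell cannot be told apart.

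The first question was how the members differ between fetal and later blood-forming tissue. In the purchased sections, all 10 members were present in both fetal livers, and all 10 were low or undetected at 89 weeks and in adult spleen. In the whole P8 section, the 4 oncofetal regulators were lower than in fetal liver whereas the 6 imprinted genes were at 285 to 827 CPM. With 1 section each, these differences have no replicate check and no test was possible.

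Lin28b was at 32.97 CPM at E13.5 and 33.4 CPM at E14.5. It fell to 0.910 CPM (20 UMIs) at P8, was not detected among the 8434382 UMIs of the 89-week marrow, where a count of 0 allows up to 0.356 CPM, and had 1 UMI in spleen. Lin28b was therefore level between the fetal livers (ratio E14.5 over E13.5 of 1.01, 95% interval 0.942 to 1.09) and 36.7-fold lower at P8 than at E14.5 (23.7 to 60.2).

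Igf2bp1 was at 104 CPM at E13.5, 69.5 CPM at E14.5 and 4.05 CPM at P8, with 0 UMIs in both older sections. It was 17.2-fold lower at P8 than at E14.5 (13.9 to 21.4), and at least 354-fold lower in spleen and at least 195-fold lower at 89 weeks when the 0 was read as 3 UMIs. Igf2bp3 was at 32.5 CPM at E13.5, 30.7 CPM at E14.5, 15.0 CPM at P8, 0 UMIs at 89 weeks and 1.18 CPM (18 UMIs) in spleen. Igf2bp3 thus had the smallest difference of the 4 between E14.5 and the whole P8 section, at 2.05-fold lower (1.82 to 2.31), and was the only one of the 4 above 3 UMIs in the purchased spleen. In the neutrophil-containing marrow spots of P8 alone, Igf2bp3 was at 20.04 CPM (16.6 to 24.0), above its level in the whole section and below that at E14.5.

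Hmga2 was at 19.9 CPM at E13.5, 8.05 CPM at E14.5 and 2.41 CPM at P8, with 2 UMIs each at 89 weeks and in spleen. It was 2.47-fold higher at E13.5 than at E14.5 (2.20 to 2.78), and it was the only member at least 2-fold apart between the fetal livers. Over all features whose higher section had more than 3 UMIs, 7.14% were at least 2-fold lower and 3.54% at least 2-fold higher at E14.5 than at E13.5.

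Dlk1 was at 1221 CPM at E13.5 and 1033 CPM at E14.5, and at 729 CPM at P8, 1 UMI at 89 weeks and 2 UMIs in spleen. Igf2 was at 616, 636 and 827 CPM at E13.5, E14.5 and P8, then at 1.90 CPM at 89 weeks and 5.56 CPM in spleen. Each of these genes stayed within 2-fold across the fetal livers and the whole P8 section, and in the older sections Igf2 was above 3 UMIs and Dlk1 was not. Igf2 was 436-fold lower at 89 weeks than in the whole P8 section (269 to 763). The 89-week marrow was sectioned without bone. In the neutrophil-containing marrow spots of P8, Igf2 was at 149 CPM and Dlk1 at 88.3 CPM, each below its E14.5 level.

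Peg3 was at 134, 109 and 285 CPM at E13.5, E14.5 and P8, and at 0.593 and 5.17 CPM at 89 weeks and in spleen. Mest was at 207, 146 and 341 CPM, then at 0.948 and 2.88 CPM in the same order. Plagl1 was at 144, 74.7 and 289 CPM, then at 3.08 and 1.05 CPM. For these genes P8 was the highest of the 5 sections, and Cdkn1c followed the same order among the first 3 sections, at 255, 142 and 411 CPM, then 5.57 CPM at 89 weeks and 3.07 CPM in spleen. The P8 level exceeded that at E14.5 by 2.61-fold for Peg3 (2.52 to 2.70), 2.33-fold for Mest (2.26 to 2.41), 3.87-fold for Plagl1 (3.72 to 4.03) and 2.90-fold for Cdkn1c (2.82 to 2.99). That excess was one of the whole section, which includes cartilage, bone and muscle. In its neutrophil-containing marrow spots alone, Peg3 was at 45.3, Mest at 94.8 and Cdkn1c at 91.4 CPM, below their E14.5 levels. Plagl1 there was at 71.3 CPM (64.7 to 78.5), an interval that includes its E14.5 level of 74.7 CPM. The order of the older sections was mixed: Peg3, Mest and Igf2 were higher in spleen, and Plagl1 and Cdkn1c higher at 89 weeks.

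In the whole P8 section against E14.5, 4 members, all imprinted, were at least 2-fold higher and 4, all oncofetal, at least 2-fold lower. Of all features, 37% and 11.7% were. At 89 weeks against P8, all 10 were at least 2-fold lower than in the whole P8 section and 0 higher, where 29.4% and 21.1% of all features were lower and higher. All 10 were likewise lower in spleen than at E14.5 (11.6% of all features lower, 51.8% higher) and lower at 89 weeks than at E14.5 (20% lower, 31.7% higher). Scaling the sections by trimmed mean of M values (TMM) factors left Plagl1 and Cdkn1c as the members 2-fold higher at P8, and Peg3 and Mest fell short of 2-fold.

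**Figure D1:**
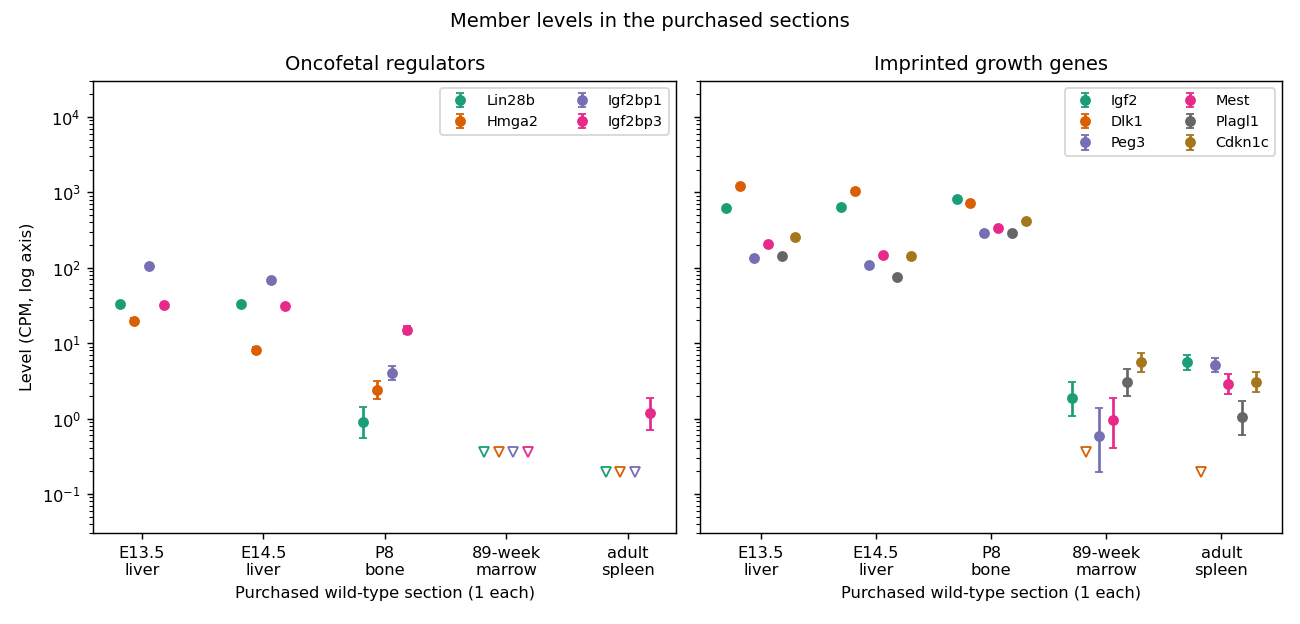
Level of each gene (CPM, log axis) in the 5 purchased sections, 1 section each, for oncofetal regulators (left) and imprinted genes (right). Filled points are levels with exact 95% Poisson intervals, and open triangles mark genes with at most 3 UMIs, drawn at the level of 3 UMIs. Over whole sections, the oncofetal genes step down at P8 and the imprinted genes after P8. In the neutrophil-containing spots of P8, Igf2, Dlk1, Peg3, Mest and Cdkn1c were already below their E14.5 levels. Igf2bp3 was at 20.04 CPM there, above its level in the whole P8 section.

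Spots of the P8 section were assigned to cartilage (610 spots), bone (212), muscle (105) or neutrophil-containing marrow by the marker list with the largest share of UMIs, at least 0.5%, and 13 spots had no class. The connective tissue list was not used for these classes. It took 12.0% of UMIs of the section and reached 0.5% in 100% of passing spots, so every class held its RNA. The imprinted genes were higher in cartilage and muscle spots than in bone spots, and lowest of the 4 regions in neutrophil spots. Igf2 was at 149 CPM in neutrophil spots, 343 CPM in bone, 1241 CPM in cartilage and 2805 CPM in muscle. Dlk1 followed at 88.3, 175, 1244 and 2363 CPM, and Cdkn1c at 91.4, 163, 668 and 1144 CPM in the same order. For these 3 genes and for Mest (94.8, 265, 498 and 733 CPM) muscle was highest. Peg3 (45.3, 118, 541 and 508 CPM) and Plagl1 (71.3, 144, 530 and 440 CPM) were highest in cartilage. The oncofetal regulators did not share this order. Igf2bp1 was lowest in neutrophil spots, at 1.70 CPM (0.814 to 3.12), and highest in bone spots, at 7.07 CPM (5.05 to 9.63), with 3.75 CPM in cartilage and 3.65 CPM in muscle. Hmga2 rested on 2 to 28 UMIs per region. Igf2bp3 was at 20.04 CPM in neutrophil spots against 11.8 CPM in bone, 13.4 CPM in cartilage and 13.6 CPM in muscle, and Lin28b had at most 8 UMIs in any region. In neutrophil spots the imprinted genes were thus still at 45.3 to 149 CPM, and 35.5% of the members' UMIs on this slide lay on spots outside the tissue. The part of RNA spread between spots in these levels was not tested. Spots of 1 section are not replicates, and no test was made between regions.

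**Figure D2:**
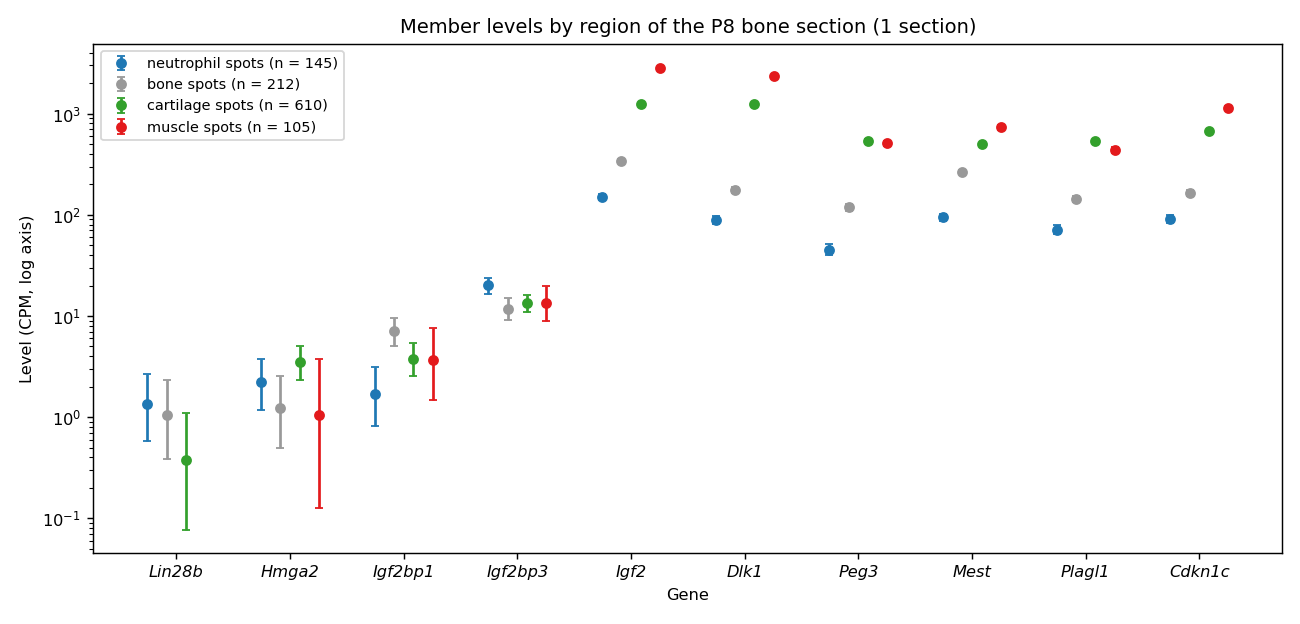
Level of each gene (CPM, log axis) in 4 kinds of spots of the P8 bone section, with exact 95% Poisson intervals for counting error. The 6 imprinted genes rise from neutrophil spots through bone to cartilage and muscle, and Lin28b, with 0 UMIs in muscle spots, has no point there.

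The cross allowed a test with replicates of fetal liver against spleen. All its livers were fetal and all its spleens came from adult mice, so organ and age cannot be told apart in this test. All 10 members were higher in the 4 E14.5 fetal livers than in the 4 spleens (edgeR quasi-likelihood test, Benjamini-Hochberg adjusted over 19180 genes), where 26.6% of all genes tested were. For each of the 10, the lowest fetal liver lay above the highest spleen in CPM, which held for 9.97% of all genes tested. The median log2 fold change was 6.85 over the members and -0.10 over all genes tested. Over all genes, 5097 were higher and 5119 lower in fetal liver with TMM factors, 3485 and 6604 with upper-quartile factors, and 1903 and 4803 with plain library sizes, which moved the median of all genes to -0.72 and that of the members to 6.35. The spread behind these p-values is that between sections of the cross, 2 per genotype and tissue, and it includes differences in the tissue each section held. The common dispersion was 0.146 over both tissues, against 0.263 in the fetal livers alone and 0.0245 in the spleens alone. This fit did not pair littermates, and with the replicate block all 10 members were also higher in fetal liver.

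Igf2bp1 and Hmga2 had the largest fold changes. In wild-type livers 2 and 4, Igf2bp1 was at 25.04 and 157 CPM, and in knockout livers 2 and 4 at 45.6 and 189 CPM, against 1 or 2 UMIs in each spleen (log2 fold change 10.15 ± 0.68 SE, adjusted p = 8.97e-05). Hmga2 was at 5.84 and 289 CPM in the wild-type and 14.5 and 289 CPM in the knockout fetal livers, against 1 to 6 UMIs per spleen (9.28 ± 1.54, adjusted p = 0.00247). The fitted size of both depends on spleen counts near 0. Both genes were higher in the fetal livers numbered 4 than in those numbered 2, so that the fetal livers spread over 49.6-fold for Hmga2 and 7.57-fold for Igf2bp1.

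Lin28b and Igf2bp3 had the smallest fold changes of the 10. Lin28b was at 14.2 and 21.1 CPM in the wild-type and 24.6 and 31.3 CPM in the knockout fetal livers, and at 6.37 and 5.68 CPM in the wild-type and 3.40 and 2.57 CPM in the knockout spleens (3.099 ± 0.26, adjusted p = 0.000160). Igf2bp3 was at 37.6, 77.4, 36.9 and 84.9 CPM in the fetal livers in the same order, and at 9.88, 9.47, 5.29 and 5.04 CPM in the spleens (3.67 ± 0.19, adjusted p = 5.42e-05). The mean spleen level was 19.8% of the mean fetal liver level for Lin28b and 12.5% for Igf2bp3, against 0.130 to 2.52% for the other 8 members. The purchased spleen held 1 UMI of Lin28b in 15291792 UMIs, but its feature table differs from that of the cross. Its passing spots shared 0 barcodes with those of the cross spleens, and the 2 sets were not compared by a test. Hepatocyte genes took 0.00581 to 0.0108% of UMIs in the cross spleens and 0.00141% in the purchased spleen. Their part in the Lin28b level was not tested.

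Igf2 was at 4430 and 4795 CPM in the wild-type and 3112 and 2870 CPM in the knockout fetal livers, against 29.1, 28.6, 25.3 and 21.9 CPM in the spleens (7.94 ± 0.58, adjusted p = 0.000120). Of the 10, Dlk1 was the most even over the fetal livers, at 1497, 1503, 1422 and 1326 CPM in the fetal livers, and 10.1, 17.0, 5.76 and 4.82 CPM in the spleens (8.21 ± 0.53, adjusted p = 8.38e-05). Its fetal livers spread over 1.13-fold although the hepatocyte share of their UMIs ran from 0.697 to 10.2%.

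The other imprinted members again separated the fetal livers by number. Peg3 was at 245 and 199 CPM in fetal livers 2 (wild type, then knockout) and at 798 and 587 CPM in fetal livers 4, Mest at 120 and 134 CPM against 938 and 482 CPM, Plagl1 at 176 and 199 CPM against 678 and 585 CPM, and Cdkn1c at 353 and 205 CPM against 1349 and 741 CPM. In the spleens these genes ranged from 3.78 CPM (Mest) to 24.2 CPM (Cdkn1c). The log2 fold changes were 7.003 ± 0.36 for Peg3, 6.69 ± 0.57 for Mest, 5.90 ± 0.41 for Plagl1 and 5.80 ± 0.45 for Cdkn1c (edgeR adjusted p = 5.22e-05 to 0.000181). All 10 members remained higher in fetal liver under each alternative tried. The connective tissue list took 0.709 and 0.399% of UMIs in fetal livers 4 and 0.1397 and 0.182% in fetal livers 2.

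**Figure D3:**
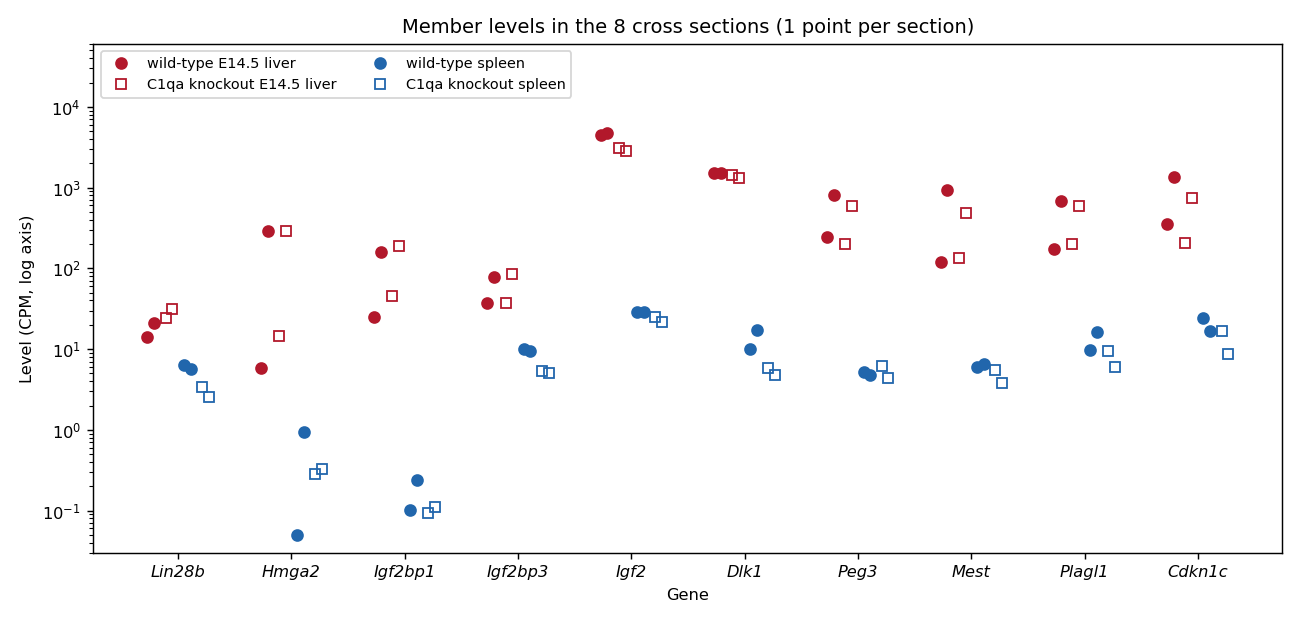
Level of each gene (CPM, log axis) in the 8 cross sections, 1 point per section, for wild-type (filled circles) and C1qa knockout (open squares) fetal livers in red and spleens in blue. In every gene the 4 fetal livers lie above the 4 spleens, with the smallest gap for Lin28b (lowest fetal liver 2.22-fold above the highest spleen).

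The pathways around the members were less one-sided. Of 16 genes of the insulin-like growth factor axis (receptors, binding proteins and adaptors), 8 were higher in fetal liver, 1 lower and 7 did not pass, with a median log2 fold change of 0.82. These counts moved with the scaling. Plain library sizes gave 6 higher, 2 lower and a median of 0.06, upper-quartile factors 6, 2 and 0.37, and DESeq2 10, 1 and 1.01. Igf2r, the receptor that removes Igf2 and is itself imprinted, was at 142 to 306 CPM in fetal liver and 32.5 to 43.3 CPM in spleen (3.15 ± 0.23, adjusted p = 0.000109). Igf1r, the receptor that signals for Igf1 and Igf2, was at 26.5 to 88.0 against 11.0 to 20.1 CPM (2.50 ± 0.28), and Irs1, its adaptor, at 21.3 to 70.8 against 10.6 to 26.3 CPM (1.74 ± 0.22), where the groups overlap in CPM. Igfbp1, a binding protein secreted by the liver, was at 40.7 to 189 against 2.25 to 6.32 CPM (5.70 ± 0.72).

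Of 26 other imprinted genes tested, of 30 listed, 15 were higher in fetal liver, 3 lower and 8 did not pass, with a median of 1.80. Plain library sizes gave 11 higher, 2 lower and a median of 1.15, upper-quartile factors 13, 4 and 1.40, and DESeq2 17, 3 and 1.98. Grb10, an adaptor that restrains growth factor signalling, was at 582 to 1597 CPM in fetal liver and 19.4 to 36.4 CPM in spleen (6.03 ± 0.33, edgeR adjusted p = 5.69e-05). Zim1, a neighbour of Peg3, was at 36.1 to 133 against 3.83 to 12.8 CPM (4.05 ± 0.28), and Slc38a4, an amino acid transporter, at 116 to 184 against 5.59 to 13.0 CPM (4.83 ± 0.41). H19 and Meg3, the noncoding neighbours of Igf2 and Dlk1, are not in the cross feature table.

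Of 17 tested genes tied to Lin28 and let-7, of 18 listed, 10 were higher in fetal liver, 0 lower and 7 did not pass, with a median of 0.89. Igf2bp2, the other member of the Igf2bp family, was at 33.2 to 341 CPM against 1.86 to 2.37 CPM (6.74 ± 0.69). Hic2, a repressor of transcription, was at 13.3 to 29.7 against 4.87 to 7.98 CPM (2.51 ± 0.23), Plag1, a zinc finger relative of Plagl1, at 12.8 to 46.0 against 3.83 to 6.77 CPM (2.91 ± 0.32), and Sall4, a stem cell factor, at 11.3 to 23.5 against 3.67 to 11.4 CPM (1.96 ± 0.24), where the groups overlap slightly. With library sizes unscaled, 4 of the 17 were higher, these 4 among them.

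Of 6 other cyclin-dependent kinase inhibitors, the counterparts of Cdkn1c, 1 was higher in fetal liver, 3 lower and 2 did not pass, with a median of -0.18. Cdkn2a was at 0.544 to 3.39 CPM in fetal liver and 5.75 to 10.7 CPM in spleen (-2.01 ± 0.35, edgeR adjusted p = 0.00297), Cdkn2b at 1.13 to 4.28 against 8.44 to 17.5 CPM (-1.85 ± 0.36, adjusted p = 0.00483) and Cdkn1b at 69.7 to 91.4 against 268 to 333 CPM (-1.01 ± 0.34, adjusted p = 0.0387). Cdkn1b did not pass in DESeq2 (-0.81, adjusted p = 0.0892). Cdkn1a passed in the upward direction (0.71 ± 0.25, adjusted p = 0.0440) although its CPM ranges overlapped (14.5 to 55.9 and 18.5 to 39.5 CPM), and it did not pass with upper-quartile factors or unscaled library sizes (adjusted p = 0.317 with the former).

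The next question was where within the E14.5 sections the members lie. Spots of the 4 cross fetal livers were split at 0.5% hepatocyte UMIs and summed per section, and the test kept the section as a block. Lin28b alone of the 10 members was higher in hepatocyte-rich spots, where 17.8% of all genes outside the hepatocyte list were. Another 5, Hmga2, Peg3, Mest, Plagl1 and Cdkn1c, were lower there, where 14.9% of all genes were. Igf2bp1, Igf2bp3, Igf2 and Dlk1 did not pass. Erythroid genes were also higher in hepatocyte-rich spots, where they took 9.82 to 21.5% of their UMIs against 0.260 to 1.86% in hepatocyte-poor spots, and connective tissue genes 0.0829 to 0.204% against 0.887 to 2.44%.

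Lin28b was at 41.0 CPM in hepatocyte-rich and 6.85 CPM in hepatocyte-poor spots of wild type 4, and at 37.8 and 15.2 CPM in knockout 4. In wild type 2 it was at 14.7 CPM against 0 UMIs, at least 3.52-fold higher when the 0 is read as 3 UMIs, and in knockout 2 at 25.3 CPM against 0 UMIs, at least 2.80-fold higher. Lin28b was thus higher in the hepatocyte-rich spots of 4 of 4 sections (log2 fold change 2.95 ± 0.55, edgeR adjusted p = 0.00516).

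Hmga2 ran the other way in 3 of 4 sections, at 79.8 against 438 CPM in wild type 4, 12.0 against 96.5 CPM in knockout 2 and 114 against 726 CPM in knockout 4. In wild type 2 it was at 5.85 against 5.56 CPM, the second value resting on 4 UMIs. The fitted log2 fold change was -1.63 ± 0.40 (edgeR adjusted p = 0.0176), and it no longer passed without wild type 4, knockout 2 or knockout 4 (adjusted p = 0.0941, 0.1205 and 0.0573). In hepatocyte-rich spots alone, Hmga2 was still at 79.8 and 114 CPM in fetal livers 4 against 5.85 and 12.0 CPM in fetal livers 2. Connective tissue genes took 0.177 and 0.204% of UMIs in these spots of fetal livers 4 and 0.0829 and 0.115% in those of fetal livers 2, and their part in the gap was not tested.

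Plagl1 was lower in hepatocyte-rich spots of all 4 sections, at 142 against 1105 CPM and 158 against 1592 CPM in wild type 2 and knockout 2, and at 319 against 934 CPM and 346 against 1182 CPM in wild type 4 and knockout 4 (-1.71 ± 0.28, edgeR adjusted p = 0.00295). Mest (-1.51 ± 0.19, adjusted p = 0.00113), Peg3 (-1.29 ± 0.19, adjusted p = 0.00186) and Cdkn1c (-1.27 ± 0.28, adjusted p = 0.0110) were also lower in all 4 sections. Cdkn1c did not pass without wild type 4 or knockout 2 (adjusted p = 0.0548 and 0.0757). Igf2 was at 4294 against 8119 CPM, 2305 against 6578 CPM, 3051 against 5185 CPM and 2158 against 4648 CPM in wild type 2, wild type 4, knockout 2 and knockout 4. Igf2 was lower in each hepatocyte-rich pool in CPM, but the fitted difference did not pass (-0.39 ± 0.31, adjusted p = 0.386).

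These fits scale each pool of spots with TMM factors. With plain library sizes, an alternative chosen after seeing the data, the median of all genes moved from 0.18 to -0.41, the genes called went from 3186 higher and 2655 lower to 1311 higher and 5302 lower, and Igf2bp1 (-0.86), Igf2bp3 (-1.09) and Igf2 (-1.08) also passed as lower, giving 8 members lower, Lin28b higher (2.42) and Dlk1 not past the threshold (-0.26, adjusted p = 0.560). Dlk1 was at 1438 against 3097 CPM, 1480 against 1519 CPM, 1415 against 1628 CPM and 1400 against 1140 CPM in the 4 sections, so that its sign differed between them. Of the context lists, 13 of 24 other imprinted genes were lower and 3 higher in hepatocyte-rich spots, and 7 of 16 insulin-like growth factor genes were lower and 3 higher, Igfbp1 among the latter (5.23 ± 0.47, edgeR adjusted p = 0.000384).

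**Figure D4:**
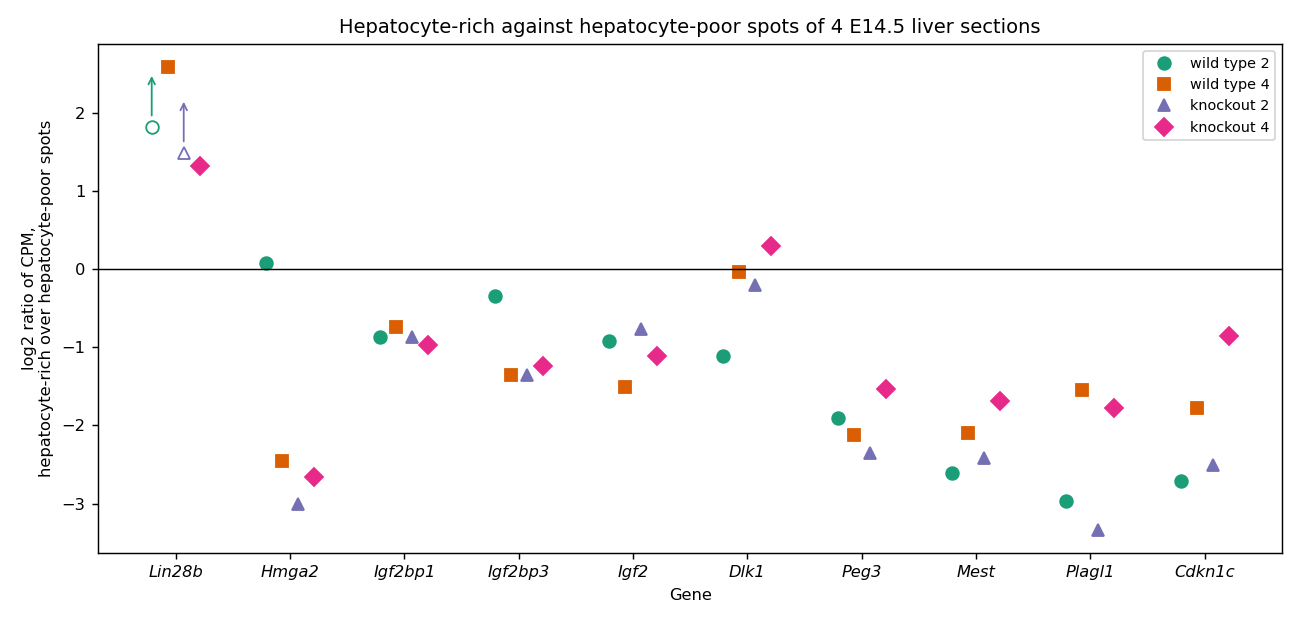
log2 ratio of CPM between hepatocyte-rich and hepatocyte-poor spots (vertical axis) for each gene in the 4 cross fetal liver sections, 1 symbol per section. Open symbols with arrows are lower bounds for sections with 0 UMIs in hepatocyte-poor spots; Lin28b lies above 0 in all 4 sections, and Peg3, Mest, Plagl1 and Cdkn1c lie below 0 in all 4.

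In wild type 4, the section with the most other tissue, spots fell into hepatocyte (226 spots), connective (462), muscle (44) and cartilage (21) classes, with 53 in none. Lin28b was at 41.4 CPM in hepatocyte spots and 5.07 to 7.68 CPM in the other classes. Igf2 was at 2219 CPM in hepatocyte spots, 6468 CPM in connective, 9254 CPM in muscle and 11411 CPM in cartilage spots, and Peg3 at 242, 1161, 1116 and 2153 CPM in the same order. Hmga2 was highest in spots of no class, at 528 CPM, and lowest in hepatocyte spots, at 74.2 CPM. These are levels of 1 section, given without a test.

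**Figure D5:**
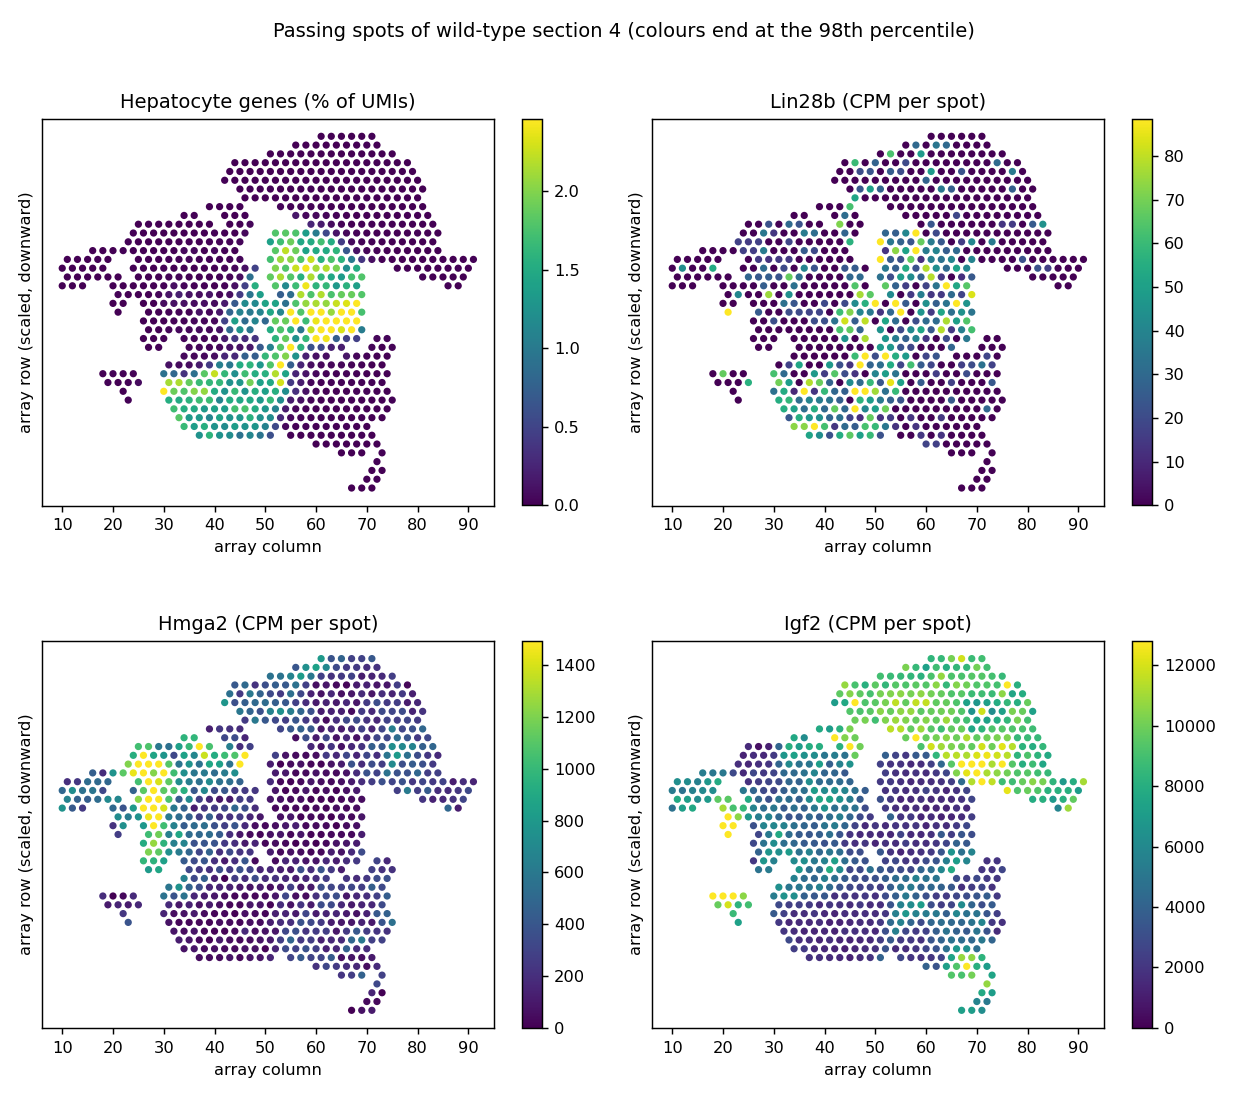
Array positions of 806 spots in the E14.5 section of wild type 4 (array column across, array row down), coloured by the share of UMIs from hepatocyte genes and by the CPM of Lin28b, Hmga2 and Igf2 in each spot. Colours end at the 98th percentile; Lin28b is seen mostly in the hepatocyte-rich area, and the highest Hmga2 and Igf2 values lie outside it.

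The cross was made to test loss of C1qa. In the E14.5 livers, 0 of the 10 members and 0 of 18986 genes (0%) passed in edgeR, with 138 genes at an unadjusted p under 0.05 and 12 genes past the threshold in DESeq2. With the litter as a block, 157 genes passed, 0 of them members. Igf2 was lower in both knockouts than in both wild types (-0.79 ± 1.22, edgeR adjusted p = 0.9998; with the litter as a block -0.84 ± 0.47, adjusted p = 0.900), and Cdkn1c was lower in the knockout of each litter (-1.07 ± 0.71; with the block -1.04 ± 0.33, adjusted p = 0.142). Over whole sections, Dlk1 and Peg3 were also lower in the knockout of both litters in CPM, and Lin28b and Igf2bp1 higher. With the block, edgeR gave -0.34 ± 0.39 for Dlk1, -0.59 ± 0.31 for Peg3, 0.46 ± 0.31 for Lin28b and 0.34 ± 0.28 for Igf2bp1 (adjusted p = 0.857 to 0.919). In hepatocyte-rich spots of litter 4, Peg3 was at 270 CPM in the wild type and 380 CPM in the knockout. Cdkn1c was at 558 and 600 CPM and Lin28b at 41.0 and 37.8 CPM there, each opposite to its whole-section direction. Igf2 (2305 and 2158 CPM), Dlk1 (1480 and 1400 CPM) and Igf2bp1 (113 and 149 CPM) kept theirs. In such spots of knockout 2, Igf2 was at 3051 CPM, above wild type 4. Without wild type 4, which leaves 1 wild-type section, of litter 2, 103 genes passed, Hmga2 among them (3.64 ± 0.93, adjusted p = 0.0203), although Hmga2 was at 289 CPM in both sections of litter 4. The lone section was assumed to vary like the knockouts. The common dispersion of the fit was 0.263 in the fetal livers and 0.0245 in the spleens, and a p that misses the threshold does not show that the genotypes were alike. The share of hepatocyte spots differed between the genotypes in litter 4. In litter 2, hepatocyte genes took 10.2% of UMIs in the wild type and 5.05% in the knockout. Muscle genes took 0.378 and 0.0451% in wild type and knockout of litter 2, and 0.173 and 0.0197% in litter 4. In wild type 2, Igf2 was at 10761 CPM in muscle and 4294 CPM in hepatocyte spots, and Cdkn1c at 2322 and 294 CPM. The part of these tissues in the genotype values was not tested beyond the fit on hepatocyte spots alone, in which 0 members passed.

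In the spleens, Hmga2 and Igf2bp1 were too low to be tested. Of the other 8, Dlk1 alone was lower in the knockouts, and 6.79% of all genes tested were. Dlk1 was at 10.1 and 17.0 CPM (201 and 72 UMIs) in the wild types and 5.76 and 4.82 CPM (61 and 88 UMIs) in the knockouts (-1.03 ± 0.29, edgeR adjusted p = 0.0171). It did not pass without wild type 2, without knockout 2, or in spots with at least 2000 genes (adjusted p = 0.190, 0.150 and 0.108). The pancreas list took 0.0107 and 0.113% of UMIs in the wild-type and 0.447 and 2.96% in the knockout spleens, and in spots with under 0.5% pancreas UMIs the Dlk1 difference was -0.99 (adjusted p = 0.0141). Of 12 erythroid genes, 10 were lower in the knockouts (median -1.78), and the list took 8.63 and 2.22% of UMIs in the wild-type and 1.09 and 2.56% in the knockout spleens. The part of erythroid cells in the Dlk1 difference was not tested. Lin28b (-0.80 ± 0.33), Igf2bp3 (-0.65 ± 0.27) and Cdkn1c (-0.51 ± 0.25) did not pass (adjusted p = 0.0825 to 0.138) but did with upper-quartile factors and with plain library sizes. These scalings moved the median of all genes from -0.08 to -0.37 and -0.34, and the genes higher in knockouts from 2603 of 3886 called to 1197 of 5597 and 1249 of 4713, against 2331 of 2705 in DESeq2. The remaining 4 lay between -0.44 and 0.30.

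The genotype difference itself was not found to differ between the tissues for any member: 0 of 10 and 0 of 19180 genes (0%) passed in edgeR, with 2018 genes at an unadjusted p under 0.05, 8 genes past the threshold in DESeq2 and 1131 with the replicate block, 0 of them members. Within the spleens, spots were split at the median lymphocyte share of each section. Peg3 alone of 8 members tested was lower in lymphocyte-rich spots, where 7.43% of all genes were. It was at 2.98 against 7.82 CPM, 5.20 against 4.26 CPM, 4.36 against 7.90 CPM and 3.73 against 5.11 CPM in wild type 1, wild type 2, knockout 1 and knockout 2 (-0.97 ± 0.23, edgeR adjusted p = 0.0207), lower in 3 of 4 sections, with 20 to 104 UMIs per section. Without wild type 1 or knockout 1 it did not pass (adjusted p = 0.123 and 0.0546), nor between the upper and lower quartiles of the share (0.0530) or without the section as a block (0.366), and DESeq2 gave it no adjusted p. Other cell types moved with this split: 12 of 12 erythroid, 5 of 7 endothelial and 5 of 14 connective tissue genes were lower in lymphocyte-rich spots (medians -2.52, -0.40 and -0.33), and their part in the Peg3 difference was not tested. The purchased spleen held 3.69 CPM in lymphocyte-rich and 7.26 CPM in lymphocyte-poor spots.

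The genes whose log2(CPM + 1) ran most like each member were ranked by Pearson correlation over 13 sections, among 12231 genes in both tables with a mean of at least 5 CPM. Some sections share a tissue, a litter or a feature table, so these correlations describe the sections and carry no p. For Igf2 the nearest were Grb10 (r = 0.986), Gpc3 (0.980) and Rtkn (0.978), and for Dlk1 they were Cdo1 (0.984), Igf2 (0.975) and Grb10 (0.968). Peg3 ran closest to Igf2r (0.990), Mest (0.988) and Grb10 (0.985), and Mest to Peg3 (0.988), Igf2r (0.987) and Cdkn1c (0.981). Plagl1 and Cdkn1c were each other's nearest gene (0.991), followed for both by Lgr4 (0.981 and 0.986), then by Gab1 (0.976) for Plagl1 and Mest (0.981) for Cdkn1c. For the oncofetal members, Lin28b ran closest to Hesx1 (0.981), Adra2b (0.981) and Gdf2 (0.980), Hmga2 to Thyn1 (0.975), Dctd (0.968) and Kars (0.967), Igf2bp1 to Myh7b (0.995), Acot1 (0.988) and Pitrm1 (0.985), and Igf2bp3 to Ptprf (0.974), Spats2 (0.970) and Runx1t1 (0.970).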

How the data were processed

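Mouse sections were assayed with 10x Genomics Visium for fixed tissue, and 14 libraries were used, 1 per section. The authors made the files with Space Ranger on the mm10 build per the labels. The software named in the file headers differed between sections (Cell Ranger 4, and Space Ranger 2.1.1, 3.1.2 and 4.0.1). The deposited matrices hold unnormalised counts of UMIs, with genes in rows and spots in columns, and the other deposited tables hold gene names, barcodes and spot positions. Purchased and cross sections differ in feature table, and passing spots of the 5 purchased sections used shared 0 barcodes with those of the cross. No p was therefore computed between them. Members and gene lists were chosen with earlier results of these data known.

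In-tissue spots with at least 1000 genes were summed per section. Levels are CPM of these sums. The tests were edgeR 4.0.16 quasi-likelihood F tests (R 4.3.3) with TMM factors and filterByExpr, with Benjamini-Hochberg adjustment over all genes tested, and a threshold of 0.05. The SE of a log2 fold change is its size divided by the square root of F. The design was 1 mean per group, or section plus spot class for hepatocyte and lymphocyte classes. DESeq2 1.42.0, upper-quartile factors, other spot filters, blocks and left-out sections were alternatives. Ratios between single sections carry exact binomial 95% intervals, with a floor of 3 UMIs for a count of 0. Named genes were all members, the 4 genes of each context list with the smallest adjusted p between fetal liver and spleen, C1qa, and the 3 genes of highest correlation with each member.

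Fetal livers of the same number are littermates and deviated together from their group means (r = 0.646 over 18986 genes). Spleens of the same number did not (r = 0.030). Replicate sections were not duplicates, since chi-square per degree of freedom was at least 21.8. Promoter windows, microRNAs and positions are from RefSeq (GRCm38.p6).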

Additional observations from a re-analysis of the deposited data

Results flagged for a closer look

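Spots outside the tissue outline and the EDTA-treated marrow entered no comparison but held UMIs of the members above the limit that a count of 0 allows. Off-tissue spots held 42461 member UMIs on the E13.5 slide, 59529 on the E14.5 slide, 35201 on the P8 slide, 123 on the 89-week slide and 151 on the spleen slide. That was 28.6, 31.7, 35.5, 53.9 and 33.8% of all member UMIs of these slides, beside 26.7, 28.4, 32.2, 49.9 and 31.1% of UMIs of all genes. The summed member level was 3038 CPM off and 2767 CPM on the tissue at E13.5, 2668 and 2283 CPM at E14.5, 3377 and 2906 CPM at P8, 14.7 and 12.4 CPM at 89 weeks, and 21.8 and 19.3 CPM in spleen. Levels outside the tissue thus followed those inside on each slide. The EDTA-treated marrow held 47 member UMIs of 449883 over all in-tissue spots (104 CPM), of which 5 lay in passing spots.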

How the results depend on the processing

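All 10 members were higher in fetal liver than in spleen under each alternative. At P8 against E14.5, 8 members were at least 2-fold apart, 6 with TMM factors and 7 when only hepatocyte spots of liver and neutrophil or erythroid spots of bone were used. Library sizes without scaling factors, and hepatocyte spots with a litter block, were alternatives chosen after seeing the data. With plain library sizes, 6706 genes differed between fetal liver and spleen (1903 higher, 4803 lower, against 5097 and 5119 with TMM), 15 between the genotypes in fetal liver and 4095 between lymphocyte classes (3085 higher, 1010 lower, against 1018 and 1377). Upper-quartile factors gave 3485 higher and 6604 lower in fetal liver. Hepatocyte classes split into 1311 higher and 5302 lower with plain library sizes, against 3186 and 2655, and Dlk1 turned from 0.43 to -0.26. Between spleen genotypes, 2603 genes were higher and 1283 lower in knockouts with TMM, but 1197 of 5597 were higher with upper-quartile factors, 1249 of 4713 with plain library sizes and 2331 of 2705 in DESeq2; both of the first alternatives called 4 members in place of 1. Spots with at least 2000 genes gave 2346 genes and 0 members there. DESeq2 gave 12 genes for fetal liver genotype, 8 for the interaction and 1445 for lymphocyte classes, with 0 members in the last. Hepatocyte spots alone gave 1 gene for fetal liver genotype. The comparison of upper with lower lymphocyte quartiles called 0 members. The cause of these changes was not tested.

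The replicate block, which pairs littermates in fetal liver, gave 157 genes for fetal liver genotype, 27 in hepatocyte spots alone and 1131 for the interaction, with 0 members in each. In spleen the numbers only name samples, and the block gave 4968 genes in place of 3886. Without the block of section, 48 genes and 0 members passed between lymphocyte classes. Leaving out 1 section at a time gave 5589 to 12043 genes for tissue, 0 to 109 genes and 0 to 1 members for fetal liver genotype, 240 (without knockout 2) to 4972 genes and 0 to 2 members for spleen genotype, 0 to 2 genes for the interaction, 3323 (without wild type 4) to 6411 genes for hepatocyte classes, and 1306 to 1855 genes and 0 to 1 members for lymphocyte classes. Hmga2 and Igf2bp1 had at most 6 UMIs in any cross spleen, so that their spleen levels carry wide counting error.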
